A study of Mus musculus with 9 samples.

Results

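The 9 genes described here encode the mitochondrial route of fatty acid synthesis and the enzymes that turn its product into protein-bound lipoate. They are Acsf3, Mcat, Oxsm, Cbr4, Hsd17b8 and Mecr on the synthesis side and Lipt2, Lias and Lipt1 on the lipoyl side. All 9 were found by symbol among the 37310 gene rows of the count files, Hsd17b8 under its older symbol H2-Ke6. The group was put together around the steep fall of Acsf3 in the libraries labelled Zbtb11 KO, that is, its members were chosen by the Acsf3 log2 fold change there together with their function. The Acsf3 values in those libraries are therefore a description without a test. The other 8 genes were chosen for their function, with earlier results of these data known, and were tested.

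Counts came from RNA sequencing of mouse embryonic stem (ES) cells, pluripotent cells of the early embryo, all of the E14 parental line and grown without feeder cells. Each of the 3 groups had 3 libraries collected at 72 h. The ethanol control was Zbtb11lox/lox with ERt2-Cre at the Rosa26 locus and received the carrier ethanol. The group labelled Zbtb11 KO had the same genotype and received 250 nM 4-hydroxytamoxifen (4OHT), the ligand that lets ERt2-Cre recombine loxP sites. The 4OHT control was Zbtb11WT/WT with an unmodified Rosa26 locus and received the same 250 nM 4OHT. This last group therefore differs from the ethanol control in drug, in the Zbtb11 alleles and in the Cre gene, and effects of these cannot be told apart. The number of clones behind the floxed line and the exons between the loxP sites are not given in the sources used here. No label names separate cultures behind the replicates, so the p-values speak of the spread among the libraries at hand, possibly a technical one. In bulk RNA, fewer cells of a type and less RNA per cell cannot be told apart.

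Gene counts per library ranged from 16909139 to 23544893. Zbtb11 itself had 348, 359 and 360 CPM (counts scaled to library size) with ethanol, 370, 386 and 376 CPM in the labelled KO and 364, 378 and 361 CPM in the 4OHT control. Its gene-level count was thus not lower in the labelled KO group, and the name "labelled KO" is kept throughout. The log2 fold change was 0.09 from the ethanol control (edgeR adjusted p = 0.17). The adjusted p was 0.032 with the replicate number as a block and 0.013 with library totals as the only scaling. From the 4OHT control the log2 fold change was 0.04 (edgeR adjusted p = 0.55, or 0.036 with library totals). All 8 markers of ES cells were at or above 1 CPM in every library, with summed levels of 3754 to 4019, 3457 to 3717 and 3651 to 4206 CPM in the 3 groups in that order. The summed level of 6 primitive endoderm markers was 10.9 to 17.1, 18.9 to 22.2 and 9.17 to 11.1 CPM, that of 7 fibroblast markers 15.8 to 18.8, 18.6 to 18.8 and 14.0 to 15.0 CPM, and that of 7 mesoderm and neural markers 48.5 to 56.8, 56.4 to 68.0 and 40.7 to 41.5 CPM. The part of these cells in the results was not tested. Labelled KO replicate 3 stood apart from its group, with a chi-square per degree of freedom of 15.8 and 16.8 against the other 2 libraries, where pairs within the groups otherwise gave 4.99 to 7.56.

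Mitochondrial fatty acid synthesis builds acyl chains step by step on the mitochondrial acyl carrier protein, separately from the large cytosolic synthase that makes fatty acids for membranes and storage. Acsf3 joins malonate to coenzyme A, Mcat passes the malonyl unit to the carrier protein, Oxsm condenses it onto the growing chain, and reduction, dehydration and a second reduction complete each round. The octanoyl chain made in this way is the precursor of lipoate, a sulfur-containing cofactor attached to pyruvate dehydrogenase, oxoglutarate dehydrogenase, branched-chain ketoacid dehydrogenase and the glycine cleavage system. Lipt2 moves the octanoyl chain to the glycine cleavage H protein, Lias inserts the sulfur atoms with the help of iron-sulfur clusters, and Lipt1 moves the finished lipoyl group to the dehydrogenases.

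Acsf3 (ENSMUSG00000015016.6), the malonyl-CoA synthetase whose inherited loss in people causes combined malonic and methylmalonic aciduria, separated all 3 groups. It had 12.8, 13.6 and 14.5 CPM with ethanol, 0.806, 0.730 and 0.572 CPM in the labelled KO and 19.1, 19.8 and 19.3 CPM in the 4OHT control. No library of a group overlapped another group, and the labelled KO libraries were the lowest. Group means were 13.7 ± 0.844, 0.703 ± 0.120 and 19.4 ± 0.380 CPM (SD, n = 3). The labelled KO level was 5.24% of the ethanol control, a log2 fold change of -4.25 (SE 0.14), and 3.69% of the 4OHT control, a log2 fold change of -4.76 (SE 0.14). Both contrasts belong to the pattern that chose the gene and carry no test.

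The precision of that low level rests on few reads. The labelled KO libraries held 19, 15 and 11 Acsf3 reads, with exact 95% Poisson intervals of 11.4 to 29.7, 8.40 to 24.7 and 5.49 to 19.7 that cover counting error only. The ethanol control held 282, 312 and 243 reads and the 4OHT control 402, 337 and 401. Reads of Acsf3 therefore remained in every labelled KO library. Between libraries of the same replicate number the log2 difference ran from -4.67 to -3.99 against the ethanol control and from -5.07 to -4.56 against the 4OHT control. Without labelled KO replicate 3 the log2 fold changes were -4.14 and -4.64.

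Among the 16224 tested genes, 4 had a lower log2 fold change than Acsf3 against the ethanol control and 11 against the 4OHT control. Next above and below it against the ethanol control were Aar2, a factor of spliceosome assembly (-4.26), and Ankrd40 (-4.05). The nearest protein-coding genes on either side of Acsf3 on its chromosome were measured as well. Ankrd11, a chromatin regulator transcribed from the opposite strand, had a log2 fold change of 0.02 from the ethanol control (edgeR adjusted p = 0.80), with 345 ± 16.0 and 351 ± 19.8 CPM. From the 4OHT control, at 444 ± 28.6 CPM, Ankrd11 fell by 0.34 (edgeR adjusted p = 0.00030), lower in 3 of 3 libraries of matching number. Cdh15, a cadherin gene on the same strand, was near 1 CPM in all groups and was not called (log2 fold change -0.51, edgeR adjusted p = 0.16, from the ethanol control and 0.10, 0.81, from the 4OHT control).

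The difference between the control groups was not what chose the genes. The contrasts that did choose them used the same control libraries, so this comparison is not independent of the choice. Acsf3 rose in the 4OHT control against the ethanol control. The log2 fold change was 0.51 (SE 0.09, 1.42-fold, edgeR adjusted p = 0.0013), it was higher in 3 of 3 libraries of matching number, and it ranged from 0.46 to 0.55 over 17 other ways of fitting, always called. Of all tested genes, 18.4% were called in this comparison, 9.66% as rises and 8.75% as falls. Ankrd11 also rose here (log2 fold change 0.36, edgeR adjusted p = 0.00045).

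**Figure D1:**
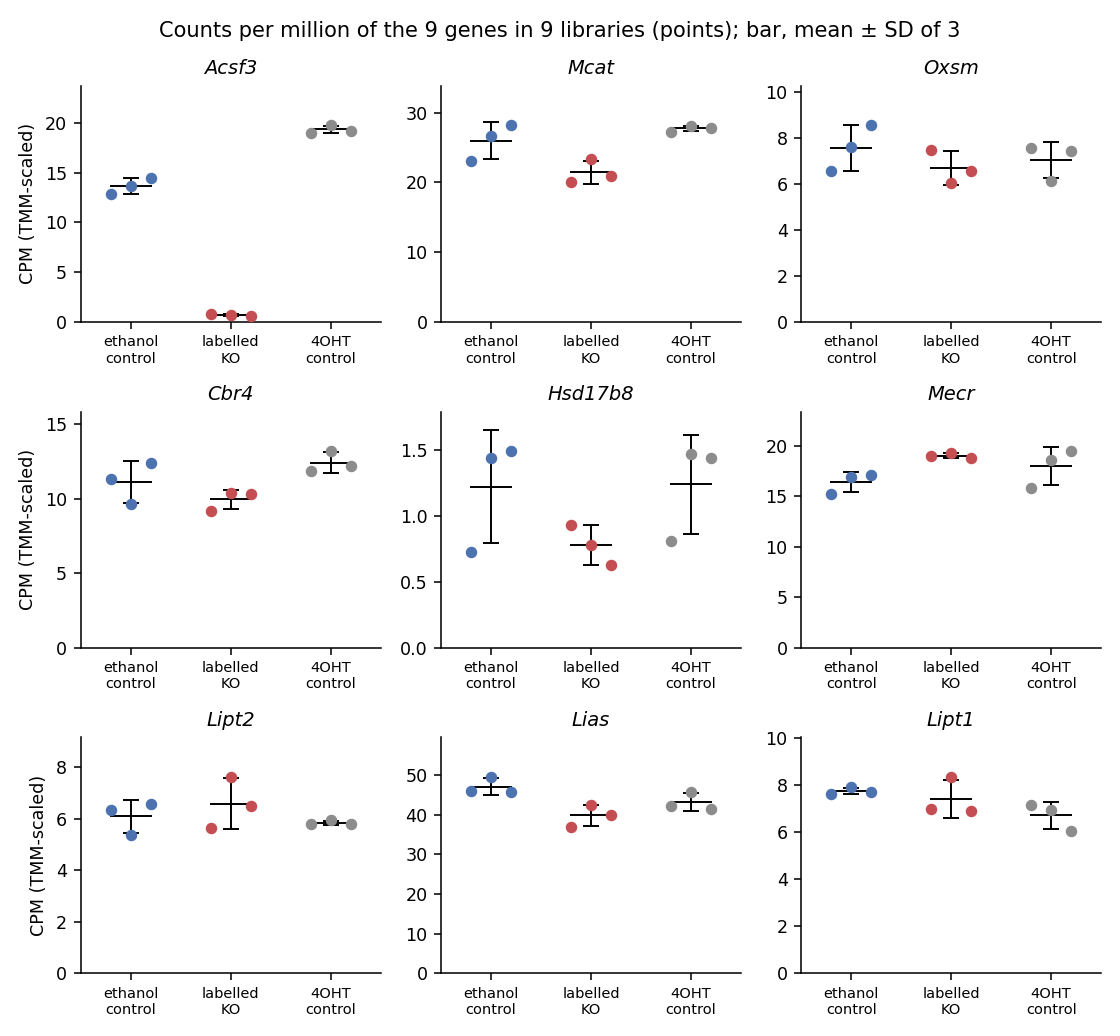
CPM of each of the 9 genes (y axis, linear from 0, a scale of its own per panel) in the 3 ethanol control, 3 labelled KO and 3 4OHT control libraries; points are libraries, long bars means and error bars SD of 3. The labelled KO libraries of Acsf3 lie between 0.572 and 0.806 CPM, below every control library, and the other panels show groups that lie close together.

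The bases upstream of the Acsf3 start site are shown because Acsf3 had the largest log2 fold change of the 9. The 5 genes nearest to it in pattern over the libraries, and the measure of likeness, are given further on. Also shown are the bases of 3 of these 5 (Ndufc2, Ankrd40 and Hus1) and of Mecr, a pathway gene not called in the main fit. All stretches are from RefSeq on GRCm38.p6, a later build than the mm9 of the count files. Each runs 5′ to 3′ to the base before the start site, or to 1 base short of it for Mecr. Capitals mark CCGGAA, the core of sites for ETS family factors, or GGGCGG, the GC box of Sp1 family factors, read on both strands. The intervals are chr8:122775236-122775485 (plus strand) for Acsf3, chr7:97399753-97400002 (plus) for Ndufc2, chr11:94327751-94328000 (plus) for Ankrd40, chr11:9011192-9011441 (minus) for Hus1 and chr4:131843221-131843469 (plus) for Mecr. In Ndufc2 the match begins 2 bases before the start site, so only its first letters fall in the stretch shown. Of the 250 Acsf3 bases, 135 are annotated as exon of another gene, Gm39271, whose level is not given here.
Acsf3: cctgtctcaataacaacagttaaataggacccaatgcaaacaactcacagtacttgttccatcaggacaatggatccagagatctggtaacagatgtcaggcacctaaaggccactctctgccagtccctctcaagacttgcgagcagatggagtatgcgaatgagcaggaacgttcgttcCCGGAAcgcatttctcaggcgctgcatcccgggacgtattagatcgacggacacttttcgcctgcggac
Ndufc2: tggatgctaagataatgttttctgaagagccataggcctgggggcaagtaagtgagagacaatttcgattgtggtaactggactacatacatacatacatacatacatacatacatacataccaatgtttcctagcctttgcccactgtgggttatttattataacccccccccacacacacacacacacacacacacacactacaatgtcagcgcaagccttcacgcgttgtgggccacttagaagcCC
Ankrd40: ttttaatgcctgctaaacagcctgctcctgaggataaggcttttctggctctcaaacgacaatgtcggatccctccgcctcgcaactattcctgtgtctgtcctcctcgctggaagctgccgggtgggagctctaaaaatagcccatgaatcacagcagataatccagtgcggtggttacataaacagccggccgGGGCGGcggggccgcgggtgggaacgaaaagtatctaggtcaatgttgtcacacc
Hus1: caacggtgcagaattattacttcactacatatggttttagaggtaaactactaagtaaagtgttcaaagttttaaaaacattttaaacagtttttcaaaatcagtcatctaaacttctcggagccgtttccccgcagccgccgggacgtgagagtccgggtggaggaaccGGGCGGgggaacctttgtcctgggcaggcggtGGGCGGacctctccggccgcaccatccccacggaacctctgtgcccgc
Mecr: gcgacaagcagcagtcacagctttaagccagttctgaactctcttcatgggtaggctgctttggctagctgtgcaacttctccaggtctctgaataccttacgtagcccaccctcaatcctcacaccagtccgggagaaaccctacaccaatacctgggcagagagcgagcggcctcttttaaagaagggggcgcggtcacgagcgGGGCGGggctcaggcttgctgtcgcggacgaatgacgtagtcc

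Windows of 250 bases before to 50 bases after the start were in RefSeq for 8 of the 9 genes, 12 windows in all. CCGGAA was in 4 of the 12 windows, those of 3 genes (Acsf3, Oxsm and Lipt1), and in 14.9% of all 32851 promoter windows, and it was searched after the Acsf3 window had been seen. In Acsf3 it began at positions -69 and 20. GGGCGG was in 6 of the 12, those of 4 genes (Oxsm, Mecr, Lipt2 and Lipt1), and in 35.7% of all windows. Windows 2 and 3 of Lipt1 overlap and hold the same 2 GGGCGG sites, so the 12 windows are not all separate stretches. The longer CCGGAAG, which contains the former motif, was in 1 of the 12 (Lipt1; 8.86% of all windows). GCGC followed by any base and TGCGC, the motif of NRF1, was in 1 (Oxsm; 4.60%), and TATAAA was in 1 (Lipt1; 13.6%). A window of Lipt1 is shown in part because it holds CCGGAAG at each end of a 30-base stretch, chr1:37872313-37872342 on the plus strand, with the motif in capitals. Of these 30 bases, 13 are annotated as exon of Lipt1 itself.
Lipt1: CCGGAAGtggcaggtgagtgaagCCGGAAG

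The Acsf3 window held 15 CpG dinucleotides, against a median of 7 over all windows, of which 65.4% held fewer than Acsf3. Windows of the other members held 3 (Lipt1) to 38 (Oxsm), and those of the 5 genes most like Acsf3 held 8 (Ndufc2) to 30 (Slc35a3). Among the 5 genes most like Acsf3, CCGGAA was in the windows of Ndufc2, Zmpste24 and Slc35a3, and GGGCGG in those of Ankrd40 and Hus1. These matches describe letters only.

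Between labelled KO and ethanol control libraries, 2 of the 8 other genes fell (Mcat and Lias) and 6 were not called, while 27.2% of all tested genes were called, 13% as rises and 14.2% as falls. Their median log2 fold change was -0.16, beside 0.01 over all tested genes. Scaling by library totals alone moved the split of all calls from 2110 rises and 2307 falls to 3038 rises and 1527 falls. Against the 4OHT control 2 of the 8 fell (Mcat and Cbr4) and 6 were not called, with 38.9% of all tested genes called, 19.1% as rises and 19.8% as falls, and a median of -0.10 beside 0.02. The log2 fold changes of the 8 genes ran from -0.62 to 0.21 and from -0.64 to 0.17. These comparisons share the labelled KO libraries, so they are given side by side.

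Mcat (ENSMUSG00000048755.8), the transacylase that loads malonate onto the carrier protein, had 23.0, 26.7 and 28.2 CPM with ethanol, 20.1, 23.4 and 20.9 CPM in the labelled KO and 27.3, 28.1 and 27.9 CPM in the 4OHT control. All labelled KO libraries lay below the 4OHT control, and their highest library passed the lowest ethanol control library. Mcat fell by 0.37 on the log2 scale against the 4OHT control (SE 0.09, edgeR adjusted p = 0.0029), a call that held in all 17 other fits. Against the ethanol control it fell by 0.27 (SE 0.09, edgeR adjusted p = 0.027). That call ended with library totals as the only scaling (edgeR adjusted p = 0.084) and without ethanol control replicate 2 (0.094) or 3 (0.12) or labelled KO replicate 1 (0.11) or 3 (0.060).

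Oxsm (ENSMUSG00000021786.6), the condensing enzyme, overlapped in all 3 groups. It had 6.55, 7.61 and 8.55 CPM with ethanol, 7.47, 6.03 and 6.55 CPM in the labelled KO and 7.54, 6.11 and 7.45 CPM in the 4OHT control. Its log2 fold change was -0.17 against ethanol (edgeR adjusted p = 0.38), with an interval of 2 SE on either side from -0.44 to 0.11. It was -0.08 against the 4OHT control (edgeR adjusted p = 0.70).

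Cbr4 and Hsd17b8 encode the subunits of the ketoacyl reductase, the first reduction of each round. Cbr4 (ENSMUSG00000031641.7) had 11.3, 9.62 and 12.4 CPM with ethanol, 9.21, 10.4 and 10.3 CPM in the labelled KO and 11.9, 13.2 and 12.2 CPM in the 4OHT control. Labelled KO values overlapped the ethanol control and lay below the 4OHT control. Cbr4 fell against the 4OHT control by 0.32 on the log2 scale (SE 0.11, edgeR adjusted p = 0.031), and the call ended with library totals (0.10) and without labelled KO replicate 1 (0.12) or 4OHT control replicate 2 (0.099) or 3 (0.055). From the ethanol control it differed by a log2 fold change of -0.16 (edgeR adjusted p = 0.32; interval of 2 SE from -0.38 to 0.07).

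Hsd17b8 (ENSMUSG00000073422.4) was the least abundant of the 9 per length in both controls and the least precisely measured, with 12 to 33 reads per library. It had 0.728, 1.44 and 1.49 CPM with ethanol, 0.934, 0.778 and 0.624 CPM in the labelled KO and 0.806, 1.47 and 1.44 CPM in the 4OHT control. In each control group 1 library lay with the labelled KO libraries and the other 2 above them. The log2 fold changes were -0.62 (SE 0.33, edgeR adjusted p = 0.19; interval of 2 SE from -1.28 to 0.05) and -0.64 (SE 0.33, edgeR adjusted p = 0.15). Gm20427, a transcript on the same strand, shares 1419 of the 1643 exon bases of Hsd17b8, so reads there could be assigned to neither gene. The level of Hsd17b8 per length was scaled by all 1643 bases and may therefore be too low.

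Mecr (ENSMUSG00000028910.6), the enoyl reductase that closes each round, had 15.3, 16.9 and 17.1 CPM with ethanol, 19.0, 19.3 and 18.8 CPM in the labelled KO and 15.8, 18.6 and 19.5 CPM in the 4OHT control. All labelled KO libraries lay above the ethanol control and inside the range of the 4OHT control. From the ethanol control it differed by a log2 fold change of 0.21 (SE 0.09, edgeR adjusted p = 0.094), not called. It was called as a rise with the replicate number as a block (0.22, edgeR adjusted p = 0.022) and with library totals (0.29, edgeR adjusted p = 0.029). It was 0.08 against the 4OHT control (edgeR adjusted p = 0.50).

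On the lipoyl side, Lias was the most abundant and the only one called in either comparison with the labelled KO libraries. Lias (ENSMUSG00000029199.5), the radical enzyme that inserts sulfur, had 45.9, 49.6 and 45.8 CPM with ethanol, 37.0, 42.5 and 40.0 CPM in the labelled KO and 42.3, 45.8 and 41.5 CPM in the 4OHT control. Without overlap the labelled KO values lay below the ethanol control, and they overlapped the 4OHT control. Against the ethanol control Lias fell by 0.24 on the log2 scale (SE 0.07, edgeR adjusted p = 0.015), and the call ended with library totals (0.061) and without ethanol control replicate 2 (0.078) or labelled KO replicate 1 (0.074). Against the 4OHT control its log2 fold change was -0.12 (SE 0.07, edgeR adjusted p = 0.19).

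Lipt2 (ENSMUSG00000030725.3), the octanoyl transferase, had 6.33, 5.38 and 6.57 CPM with ethanol, 5.64, 7.64 and 6.50 CPM in the labelled KO and 5.79, 5.93 and 5.81 CPM in the 4OHT control. All 3 groups overlapped, and the 4OHT control was the narrowest, with an SD of 0.0790 CPM. Its log2 fold changes were 0.12 (edgeR adjusted p = 0.57; interval of 2 SE from -0.16 to 0.39) and 0.17 (edgeR adjusted p = 0.36).

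Lipt1 (ENSMUSG00000037216.4), the lipoyl transferase, had 7.65, 7.92 and 7.71 CPM with ethanol, 7.00, 8.37 and 6.92 CPM in the labelled KO and 7.16, 6.93 and 6.05 CPM in the 4OHT control. Labelled KO values spanned the ethanol control, and the 4OHT control lay below the ethanol control. The log2 fold changes were -0.06 (edgeR adjusted p = 0.73; interval of 2 SE from -0.30 to 0.18) and 0.15 (edgeR adjusted p = 0.37). Its opposite-strand neighbour Mitd1, which encodes a protein of late cell division, shares 262 exon bases with it and went from 17.6 ± 1.33 to 7.26 ± 0.505 CPM in the labelled KO libraries (SD, n = 3). Mitd1 fell by 1.28 on the log2 scale (edgeR adjusted p = 1.1e-07). Details of strand in the counting are not given in the sources used here, and reads of the shared bases may not have been told apart. Mcat shares 53 exon bases in this way with Tspo, and Oxsm 21 with Ngly1, neither of which was called between labelled KO and ethanol control.

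Between the 2 control groups none of these 8 genes was called by edgeR, and none was called under the 17 other fits. Log2 fold changes ran from -0.21 for Lipt1 (edgeR adjusted p = 0.27) to 0.16 for Cbr4 (0.34). Acsf3 and Lipt1 were the 2 of 9 genes whose control groups did not overlap, where 35.1% of all tested genes did not. For labelled KO against ethanol 2 of the 8 genes did not overlap (Lias and Mecr, background 41.9%), and against the 4OHT control 2 did not (Mcat and Cbr4, background 48.2%).

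**Figure D2:**
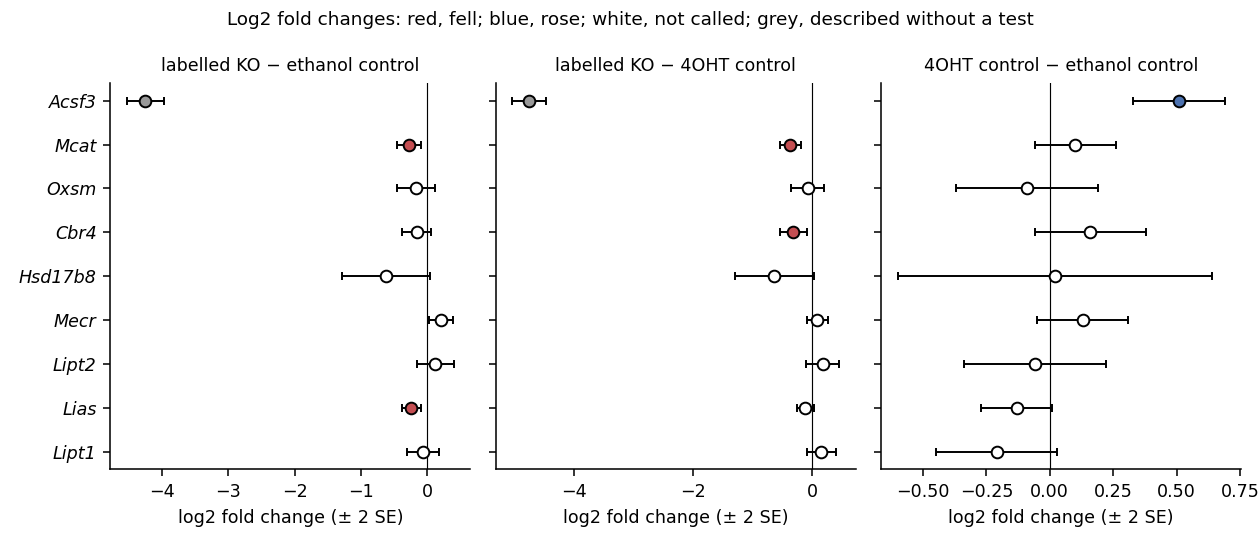
Log2 fold changes (x axis, a separate range in the panel of the controls) of the 9 genes in the 3 comparisons, with bars of 2 SE on either side; red marks falls, blue rises, white genes not called and grey the Acsf3 contrasts given without a test. Acsf3 stands at -4.25 and -4.76 and at 0.51 between the controls, while the other genes lie between -0.64 and 0.21.

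Levels of different genes were compared only as CPM per kilobase of exon. In the ethanol control Mcat (10.6) and Lias (10.3) led and overlapped, followed by Mecr (5.40). Lipt1 (3.78), Lipt2 (3.66) and Acsf3 (3.65) followed without being separable, then Oxsm (1.84) and Cbr4 (1.78), which also overlapped, and last Hsd17b8 (0.744). Acsf3 thus stood in the middle of the pathway in the ethanol control. In the 4OHT control it had 5.17 CPM per kilobase, overlapped Mecr (5.92) and lay above Lipt2 (3.51). In the labelled KO libraries it was last, at 0.188 CPM per kilobase, below Hsd17b8 (0.474) in every library. The other 8 genes kept nearly the same order there, with Lias and Mcat at 8.71 each, Mecr at 6.26, Lipt2 (3.97) and Lipt1 (3.62) overlapping and Oxsm (1.62) and Cbr4 (1.59) overlapping. Hsd17b8 shares 1419 of its 1643 exon bases with Gm20427, so its level per kilobase may be too low and its place in the order is uncertain.

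**Figure D3:**
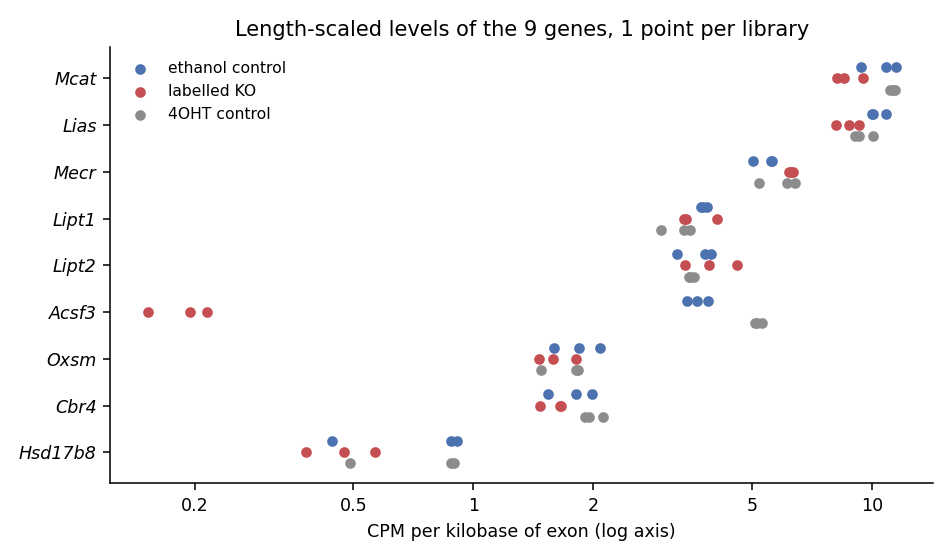
CPM per kilobase of exon (log axis) of the 9 genes, ordered by their mean in the ethanol control, with 1 point per library. Acsf3 lies at about the level of Lipt1 and Lipt2 in the ethanol control and below all other genes in the labelled KO libraries. Hsd17b8 is scaled by exon bases that include those shared with Gm20427, so its points may lie too low.

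The genes whose pattern was most like that of Acsf3 were found by the smallest Euclidean distance between log2(CPM + 0.1) values over the 9 libraries, each gene centred on its own mean, among 10876 genes with a symbol and a mean log2 CPM of at least 2. They were Ndufc2, a subunit of respiratory complex I (distance 0.45), Ankrd40 (0.51), Zmpste24, the protease of prelamin processing (0.60), Slc35a3, a Golgi transporter of nucleotide sugars (0.66), and Hus1, a subunit of a DNA damage checkpoint clamp (0.80). With 0.5 added to CPM instead, 4 of the 5 stayed among the nearest 5 and Pigq took the place of Ndufc2. The other 8 pathway genes lay at distances of 5.48 to 6.41.

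**Figure D4:**
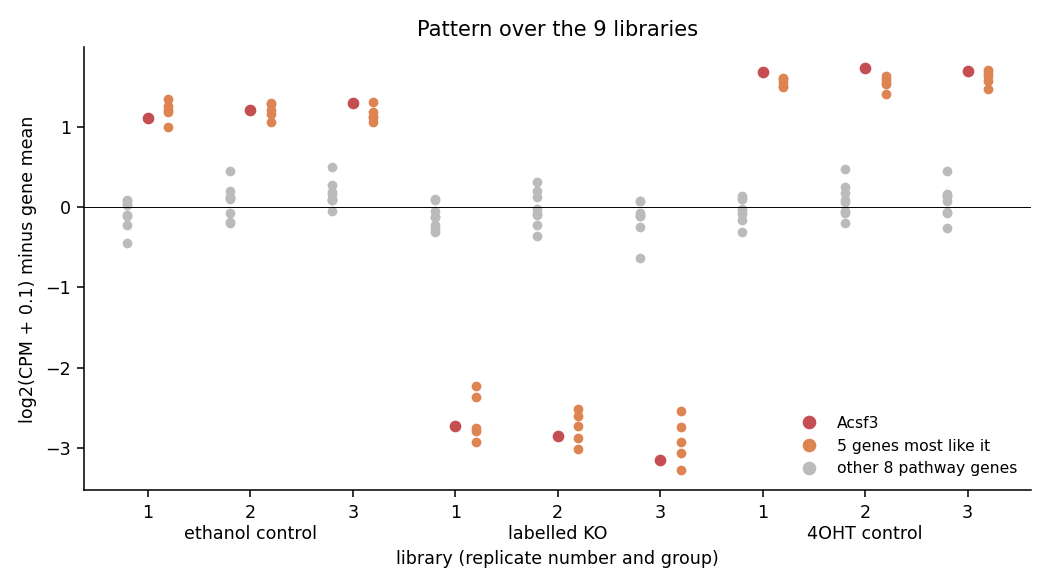
Log2(CPM + 0.1) minus the gene's mean (y axis) in the 9 libraries, for Acsf3 (red), the 5 genes nearest to it (orange) and the other 8 genes of the pathway (grey). Acsf3 lies from 1.11 to 1.29 in the ethanol control, from -3.15 to -2.72 in the labelled KO libraries and from 1.68 to 1.74 in the 4OHT control, and no grey point approaches it.

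Also listed with mitochondrial fatty acid synthesis were the carrier protein Ndufab1, which is also a complex I subunit, and the dehydratase Htd2. The transferase Aasdhppt that arms the carrier protein and 2 enzymes of malonyl-CoA turnover, Acaca and Mlycd, completed this list. Of these 5, 1 rose and 1 fell against each of the ethanol and 4OHT controls (27.2% and 38.9% of all tested genes were called), and none was called between the controls. With the replicate block 1 rose and 2 fell against the 4OHT control and 1 rose between the controls. Ndufab1 went from 50.2 ± 1.64 to 57.6 ± 2.34 CPM, with 48.9 ± 0.218 CPM in the 4OHT control (each SD, n = 3). The rise was 0.20 against the ethanol control (edgeR adjusted p = 0.016) and 0.23 against the 4OHT control (0.0040). The former call ended without ethanol control replicate 1 (0.063) or 3 (0.059) or labelled KO replicate 1 (0.072) or 2 (0.071).

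Acaca, the carboxylase that makes malonyl-CoA from acetyl-CoA, had 123, 132 and 128 CPM with ethanol, 81.4, 98.3 and 106 CPM in the labelled KO and 139, 143 and 154 CPM in the 4OHT control. The labelled KO libraries were lower than all others. It fell by 0.43 on the log2 scale against the ethanol control (SE 0.08, edgeR adjusted p = 0.0013) and by 0.61 against the 4OHT control (edgeR adjusted p = 2.9e-05), in all 17 other fits as well. Malonyl-CoA also feeds the cytosolic route, and gene-level counts of Acaca do not tell the routes apart. Htd2, counted under Rpp14 because both are read from the same RefSeq transcript, had a log2 fold change of -0.06 (edgeR adjusted p = 0.67). Mlycd, the decarboxylase of malonyl-CoA, had 0.27 (0.34) and Aasdhppt -0.11 (0.26), both against the ethanol control.

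The enzymes that carry lipoate, or work in the same complexes, number 14. Against the ethanol control 3 fell and none rose, and 13 of the 14 log2 fold changes were negative (median -0.11). Of all tested genes 27.2% were called, 14.2% as falls, and 47.9% had a negative log2 fold change. Gldc, the decarboxylase of the glycine cleavage system, went from 245 ± 15.7 to 175 ± 17.6 CPM (SD, n = 3) and fell by 0.49 (SE 0.07, edgeR adjusted p = 8.9e-05). Bckdhb, of branched-chain ketoacid dehydrogenase, fell by 0.26 (0.0077), and Dlat, the lipoyl-bearing subunit of pyruvate dehydrogenase, by 0.22 (0.0079). With the replicate block 8 of the 14 fell against the ethanol control, where 22.3% of all tested genes fell in that fit, and without labelled KO replicate 2 there were 5 falls. Against the 4OHT control 3 fell and 1 rose (5 and 1 with the block), beside 19.8% and 19.1% of all genes (25.9% and 25.5% with the block). Gldc fell by 0.39 (0.00037), Dlat by 0.34 (0.00018) and Gcsh, the H protein that first receives the octanoyl chain, by 0.35 (0.0019). Negative log2 fold changes numbered 9 of the 14 against the 4OHT control (median -0.07), beside 47.4% of all genes. Between the controls, without labelled KO libraries, they also numbered 9 (median -0.06), beside 49.2%.

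Dlst, the lipoyl-bearing subunit of oxoglutarate dehydrogenase, rose by 0.34 against the 4OHT control (edgeR adjusted p = 0.0017) and had a log2 fold change of -0.09 against the ethanol control (0.38). Its lowest group was the 4OHT control, at 96.7 ± 9.52 CPM against 131 ± 9.15 and 123 ± 7.14 CPM in the ethanol control and the labelled KO libraries, and it fell between the controls by 0.43 (0.00065). Bckdhb also fell between the controls, by 0.21 (0.036), a call that ended in 8 of 17 other fits. Against the 4OHT control Bckdhb was not called (log2 fold change -0.05, edgeR adjusted p = 0.57). In all, 2 of the 14 fell and none rose between the controls (4 and 2 with the block), beside 8.75% and 9.66% of all genes (15.8% and 17.0% with the block).

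Of 16 genes that supply iron-sulfur clusters, on which Lias depends, 1 rose and 1 fell against the ethanol control (1 and 3 with the replicate block; median -0.04), where 27.2% of all tested genes were called, or 42.8% with the block. Nfs1, the cysteine desulfurase that provides sulfur for the clusters, had 41.7 ± 1.45 CPM with ethanol, 35.5 ± 0.876 CPM in the labelled KO and 27.3 ± 1.78 CPM in the 4OHT control (each SD, n = 3). It fell by 0.23 against the ethanol control (edgeR adjusted p = 0.016, or 0.088 with library totals, 0.062 without ethanol control replicate 3 and 0.051 without labelled KO replicate 1). It rose by 0.38 against the 4OHT control (0.00038), the group with the lowest level. Iba57, a late assembly factor, rose by 0.33 against the ethanol control (0.019), a call that ended in 7 of 17 other fits.

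Against the 4OHT control 3 of the 16 rose and none fell (4 and 2 with the block, 5 and 0 with library totals), beside 38.9% of all genes called (51.4% with the block and 40.3% with library totals). Besides Nfs1 these were the scaffold Iscu (0.30) and the cochaperone Hscb (0.38, edgeR adjusted p = 0.019, ended in 3 of 17 other fits). Between the controls 5 fell and 1 rose, among them Nfs1 (-0.61, edgeR adjusted p = 1.2e-05), Hscb (-0.44) and Iscu (-0.28) downward and Iba57 upward (0.47, 0.0031). In this comparison 8.75% of all genes fell. The 5 falls became 1 without 4OHT control replicate 2, 2 without ethanol control replicate 2 or 3, and 3 without ethanol control replicate 1 or 4OHT control replicate 1 or 3. The calls of Hscb and Iscu between the controls ended in 3 and 2 of 17 other fits.

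LYR proteins are small mitochondrial proteins that bind the acylated carrier protein while assembling respiratory or iron-sulfur enzymes. Of 10, 2 rose and 2 fell against the ethanol control, with a median log2 fold change of 0.11, where 27.2% of all tested genes were called. Without ethanol control replicate 3 or labelled KO replicate 2 none of the 10 rose, and without any 1 of the 6 libraries compared 1 fell. Fmc1, a factor of ATP synthase assembly, went from 6.87 ± 0.702 to 4.54 ± 0.185 CPM and fell by 0.59 (edgeR adjusted p = 0.0046), and by 0.70 against the 4OHT control (0.00076). Lyrm1 went from 2.87 ± 0.347 to 4.35 ± 0.694 CPM and rose by 0.60 (0.019; 0.077 without ethanol control replicate 1, 0.053 without replicate 3 and 0.094 without labelled KO replicate 2), and by 0.94 against the 4OHT control (0.00080). The complex I subunits Ndufb9 (0.24, 0.021) and Ndufa6 (-0.20, 0.044) were called in the main comparison with the ethanol control, and the calls ended in 4 and 10 of 17 other fits.

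Etfrf1, a regulator of the electron transfer flavoprotein, had 17.4 ± 0.804, 18.7 ± 0.826 and 9.27 ± 1.92 CPM in the ethanol control, the labelled KO libraries and the 4OHT control (SD, n = 3). It rose by 1.00 against the 4OHT control (edgeR adjusted p = 7.5e-06) and fell by 0.90 between the controls (7.3e-05), so the 4OHT control was the group apart. Lyrm9 rose by 0.52 against the 4OHT control (0.0017) and fell by 0.41 between the controls (0.018, ended in 3 of 17 other fits). In all, 3 of the 10 LYR genes rose and 1 fell against the 4OHT control, beside 19.1% and 19.8% of all tested genes. Between the controls 2 fell and none rose, beside 8.75% and 9.66%.

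Acsf3 belongs to a family of acyl-CoA synthetases, of which 15 of 16 others listed were tested. Against the ethanol control 2 fell and none rose (6 and 0 with the replicate block; median 0.08), beside 14.2% of all genes that fell (22.3% with the block). The 2 falls became 1 without ethanol control replicate 2 and 4 without labelled KO replicate 3. Acsl5, a long-chain synthetase, went from 27.4 ± 2.11 to 17.4 ± 2.23 CPM and fell by 0.66 (SE 0.10, edgeR adjusted p = 0.00016). Slc27a2, a very long-chain synthetase, fell by 0.70 (0.016; 0.054 without ethanol control replicate 2 and 0.050 without labelled KO replicate 3). No other synthetase came near the fall of Acsf3, the lowest log2 fold change in the list being that of Slc27a2.

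Against the 4OHT control 3 synthetases fell and none rose (7 and 1 with the block), beside 19.8% of all genes that fell (25.9% with the block). They were Acsl1, which fell by 0.60 (edgeR adjusted p = 2e-05), Acsl3 by 0.45 (0.00073) and Acsf2, the nearest relative by name, by 0.29 (0.025, ended in 5 of 17 other fits). Without labelled KO replicate 3 there were 5 falls. In the main fit neither Acsl5 (log2 fold change -0.24, edgeR adjusted p = 0.075) nor Slc27a2 (-0.44, 0.079) was called against the 4OHT control. Acsl5 had 20.5 ± 1.42 CPM in that group. Acsf2 had 22.2 ± 2.14, 24.9 ± 2.83 and 30.4 ± 2.36 CPM in the ethanol control, the labelled KO libraries and the 4OHT control. Between the controls 3 rose and 2 fell, beside 9.66% and 8.75% of all genes, with Acsf2 (0.45), Acsl1 (0.41), Acsl5 (-0.42) and Acsl4 (-0.35) having the smallest p. The call of Acsl4 ended without ethanol control replicate 2 (0.071 in that fit).

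Cytosolic fatty acid synthesis, the separate route, is given for contrast. The list also holds genes of chain elongation and desaturation, such as Tecr, Elovl6 and Scd1. It leaves out Acaca, which was counted above. Of 12 genes 5 fell and 1 rose against the ethanol control (7 and 3 with the replicate block; median -0.19), and 7 fell and 2 rose against the 4OHT control (8 and 3; median -0.23). Of all tested genes 27.2% were called in the former comparison, 14.2% as falls (42.8% and 22.3% with the block), and 38.9% in the latter, 19.8% as falls (51.4% and 25.9%). Tecr, the reductase of very long-chain elongation, went from 67.4 ± 3.48 to 41.9 ± 4.83 CPM, against 103 ± 3.68 CPM in the 4OHT control (each SD, n = 3). It fell by 0.69 (edgeR adjusted p = 5.1e-06) and by 1.30 (1.2e-09). Fasn, the cytosolic synthase, fell by 0.46 (3.9e-05) and 0.62 (7.8e-07), and the desaturase Scd1 by 0.62 (0.00044) and 0.95 (5.9e-06). Me1, a source of NADPH, rose by 0.39 against the ethanol control (0.0016), and the elongase Elovl6 fell by 0.64 against the 4OHT control (0.00038). Between the controls 3 of the 12 rose and none fell (6 and 1 with the block), beside 9.66% of all genes that rose (17.0% with the block). These were Tecr, which rose by 0.61, Elovl6 by 0.45 and Scd1 by 0.33, the last a call that ended in 5 of 17 other fits.

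**Figure D5:**
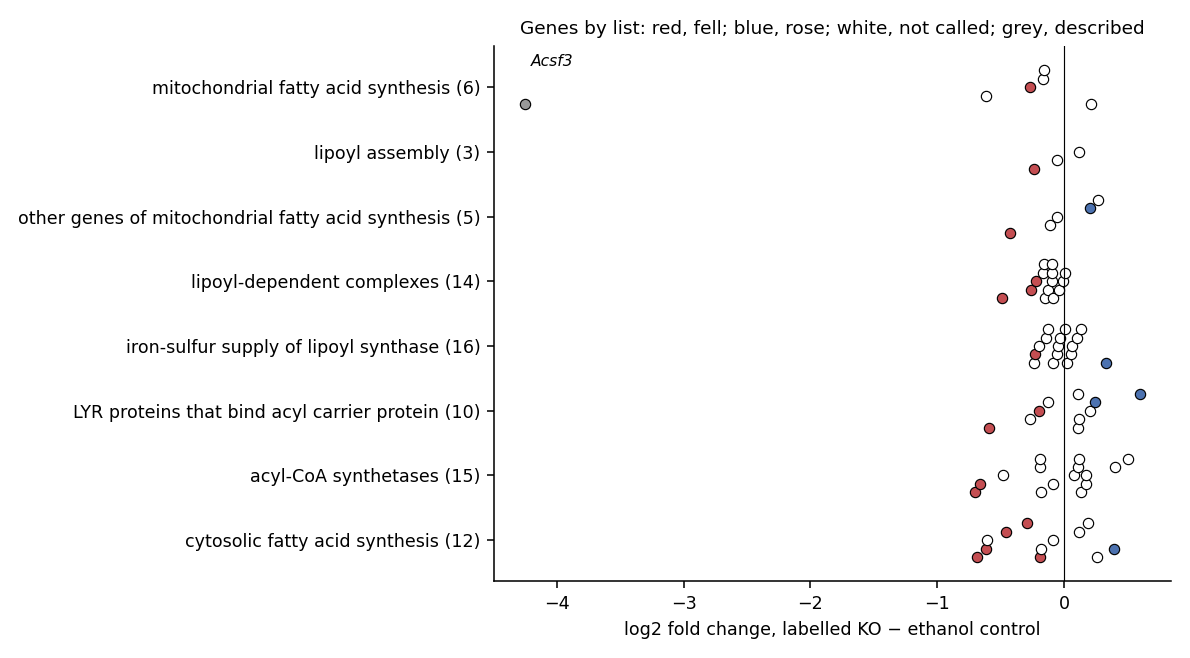
Log2 fold changes, labelled KO minus ethanol control (x axis), for the 9 genes and the 6 related lists, with the number of tested genes in brackets; red marks falls, blue rises, white genes not called and grey Acsf3, given without a test. Acsf3 at -4.25 is far to the left of all other points, which lie between -0.70 and 0.60, and vertical offsets only separate the points.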

How the data were processed

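The members and lists were chosen with earlier results of these data known. Per the labels' protocols, ribosomal RNA was depleted and directional libraries were made. The authors deposited 1 file of raw counts per library, by gene. Cutadapt, STAR, HTSeq and the build mm9 are named in the submitters' processing notes, and the strand setting and other options are not given in the sources used here. The 5 closing rows that name no gene were left out, among them 0.780% to 0.908% of reads that were ambiguous. Reads without a feature made up 26.4% to 28.7% in the ethanol control and 26.7% to 27.5% in the 4OHT control. In the labelled KO libraries they made up 32.7% to 33.8%, above every control library, and the part of this difference in the results was not tested. Counts were tested with edgeR 4.0.16 (R 4.3.3, limma 3.58.1): robust quasi-likelihood fit of all 9 libraries, TMM scaling, filterByExpr, 16224 genes tested, 6 residual degrees of freedom. A gene "rose" or "fell" at a Benjamini-Hochberg adjusted p under 0.05 over all tested genes; all 9 members passed the filter. CPM are TMM-scaled, and ± is the SD of 3 libraries. The other 17 fits used RLE factors, library totals, other filters, DESeq2 1.42.0, limma-voom, a replicate block, the 2 groups compared, or left out 1 library each. Deviations from group means correlated at 0.109 to 0.311 in the 9 pairs of libraries with the same number. In the 18 other pairs they correlated at -0.225 to -0.022. The numbers thus pair the libraries, but what they stand for is not given. The main fit leaves this pairing out, and the replicate block takes it in. No 2 libraries were identical. Symbols and exon lengths are from GENCODE M21, promoter windows from RefSeq (GRCm38.p6). Genes were named by a rule: all members, called list members up to 4 per comparison by smallest p, the 5 genes nearest to Acsf3, Zbtb11, and genes beside or overlapping a member; Aar2 and Pigq were named after their values were seen.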

Additional observations from a re-analysis of the deposited data

How the results depend on the processing

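The fits with other settings moved mainly counts and small changes. With the replicate block as pairing, 6936 genes were called between labelled KO and ethanol control (4417 without it) and 5323 between the controls (2987 without it); the block changed the call of 1 of the 8 tested members against the ethanol control (Mecr) and of none in the other comparisons. Leaving out 1 library at a time gave 1974 to 3069 calls between the controls, fewest without ethanol control replicate 2. Against the ethanol control the called ones of the 8 tested members were Mcat and Lias. Both calls ended without ethanol control replicate 2 or labelled KO replicate 1. Acsf3 is left out here because its contrasts with the labelled KO libraries carry no test. The following directions turned, none of them called, and the cause was not tested. Library totals gave 0.0077 for Lipt1 against the ethanol control and 0.0092 for Oxsm against the 4OHT control; under this scaling the median of all genes was 0.09 and 0.10 in these comparisons. Lipt2 against the ethanol control was -0.018 without labelled KO replicate 2 (-0.018 to 0.21 over all left-out libraries). Mecr against the 4OHT control was -0.0050 without 4OHT control replicate 1 (-0.0050 to 0.15). Hsd17b8 between the controls was -0.26 without ethanol control replicate 1, -0.11 without 4OHT control replicate 2 and -0.12 without 4OHT control replicate 3 (-0.26 to 0.26). Depth limits Hsd17b8, with 12 to 33 reads per library, and Acsf3 in the labelled KO libraries, with 11 to 19. Small list counts also moved with 1 library left out. Of the iron-sulfur genes against the ethanol control, the 1 rise became 0 without any 1 of the ethanol control replicates or labelled KO replicate 1 or 2, and the 1 fall ranged from 0 (without ethanol control replicate 3 or labelled KO replicate 1) to 2 (without ethanol control replicate 1 or labelled KO replicate 2). Falls between the controls ranged from 1 to 3 for the lipoyl-dependent enzymes (main 2) and from 1 to 2 for the LYR proteins (main 2). In the main fit 8.75% of all tested genes fell in this comparison.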
